A study of Mus musculus with 6 samples.

Results

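The genes described here mark dendritic cells in mouse bone marrow: 6 of plasmacytoid dendritic cells (Siglech, Bst2, Tcf4, Cox6a2, Runx2 and Ly6d) and 4 of conventional or other dendritic cells (Itgax, Flt3, Cd209a and Zbtb46). They were taken by gene symbol from the annotation of the array, through probe sets with exactly 1 symbol. Of the 10, 9 had such a probe set, 1 set each, among 19938 genes with one. All 9 passed the level filter that left 12029 genes for testing, and both of their group means lay above its cut, a log2 signal of 7.503. Runx2 had no probe set with its symbol in that annotation and is not analysed here.

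RNA of whole marrow was measured on 6 single-colour Affymetrix gene arrays. Of these, 3 were from diabetic mice, labelled BKS.Cg-Dock7m -/- Leprdb/JNju, and 3 were from mice labelled wild type and BKS.Cg-Dock7m +/+ Leprdb/JNju. All mice were males of 10 weeks, with no further treatment. Both labels carry the names of Dock7m, a coat colour variant, and of Leprdb, the leptin receptor variant that causes obesity and diabetes, and the zygosity at each locus cannot be read from them with certainty. Marrow was flushed from the shafts of femurs and tibiae with no sorting step in the labels, so a signal depends on both how many cells carry a transcript and how much each cell holds, and fewer cells of a type and less RNA per cell cannot be told apart. The labels do not say whether 1 mouse or several went into an array, so the p-values reflect only the spread among these arrays, which may be technical. All errors of changes below are standard errors of the limma fit, and n was 3 arrays per group throughout.

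Plasmacytoid dendritic cells are the blood cells specialised to secrete type I interferon when nucleic acids reach their endosomal Toll-like receptors. Conventional dendritic cells take up antigen, present it on MHC class II and prime T cells. Both form in the marrow from progenitors that need the receptor Flt3, and the balance between the transcription factors Tcf4 and Id2 directs progenitors to the plasmacytoid or the conventional fate. Few of these genes are exclusive to dendritic cells: Ly6d and Tcf4 are also used by B cells and their precursors, Bst2 is induced by interferon in many cells, Itgax is found on macrophages too, Flt3 on early progenitors and Cox6a2 in muscle.

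The labelled tissue fitted its markers. The granulocyte genes Mpo, Elane, Ly6g and S100a8, the B cell gene Cd79a and the erythroid factor Klf1 had 6-array means above those of 93.1 to 99.9% of named genes. Array medians ran from 7.67 to 7.73 on the log2 scale. Between diabetic and wild type marrow, 52 of 12029 genes passed a Benjamini-Hochberg adjusted p of 0.05 in limma, which is 0.432% of them, with 0.333% lower and 0.0998% higher, and none of the 9 measured dendritic cell genes was among them. With no adjustment, 864 genes (7.18%) had a p under 0.05, 3.2% lower and 3.98% higher, and so did 6 of the 9, in which 5 were lower and 1 was higher in diabetic marrow. The groups did not overlap for 1486 genes (12.4%), 5.39% lower and 6.97% higher, and likewise for 5 of the 9, of which 4 were lower and 1 was higher.

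Promoters of 4 of the genes are shown because Bst2 and Siglech, both plasmacytoid genes, had unlike differences, and Itgax and Flt3, both of the other group, had differences of opposite sign. Each is the 250 bases before the annotated start of the gene in GRCm38.p6 (RefSeq), 5′ to 3′ on the strand of the gene. Capitals mark CAGNTG, a form of the E-box that Tcf4 and its relatives bind, and GAAA repeated after a gap of 2 bases, the core of the element bound by interferon-activated factors, both searched on either strand.
Bst2 (chr8:71537473-71537722, minus strand): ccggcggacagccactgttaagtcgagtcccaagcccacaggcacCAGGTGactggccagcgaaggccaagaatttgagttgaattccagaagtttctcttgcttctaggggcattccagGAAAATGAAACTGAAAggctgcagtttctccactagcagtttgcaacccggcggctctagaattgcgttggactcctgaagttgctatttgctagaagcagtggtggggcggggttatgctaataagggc
Siglech (chr7:55767934-55768183, plus strand): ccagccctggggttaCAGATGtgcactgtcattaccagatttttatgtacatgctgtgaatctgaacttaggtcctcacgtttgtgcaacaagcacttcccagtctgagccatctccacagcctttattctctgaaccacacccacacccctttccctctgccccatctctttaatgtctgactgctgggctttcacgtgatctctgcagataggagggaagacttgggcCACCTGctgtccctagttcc
Itgax (chr7:128129300-128129549, plus strand): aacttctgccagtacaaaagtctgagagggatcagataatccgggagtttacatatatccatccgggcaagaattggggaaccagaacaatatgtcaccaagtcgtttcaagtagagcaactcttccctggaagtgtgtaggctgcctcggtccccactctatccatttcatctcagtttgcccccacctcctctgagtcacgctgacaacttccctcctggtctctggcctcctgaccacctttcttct
Flt3 (chr5:147400490-147400739, minus strand): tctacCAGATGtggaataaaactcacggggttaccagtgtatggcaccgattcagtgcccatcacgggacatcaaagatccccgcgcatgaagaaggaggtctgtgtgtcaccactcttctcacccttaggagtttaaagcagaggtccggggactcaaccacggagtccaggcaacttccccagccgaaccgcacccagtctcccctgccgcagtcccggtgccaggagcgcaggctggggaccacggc
The Bst2 window held the repeated GAAA at 2 positions that overlap each other, starting 130 and 124 bases before the start site, and this pattern occurred in 2.98% of 32851 promoter windows of the same length. CAGNTG occurred in 44.8% of those windows, and in the windows of Bst2, Siglech and Flt3 but not of Itgax. No overlap between the motifs was seen in these 4 windows. A match of letters is a description of the sequence and not evidence of binding.

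Siglech encodes a sialic acid-binding surface lectin that is among the most used markers of mouse plasmacytoid dendritic cells. Its log2 signal (probe set 10553559) was 9.88, 10.01 and 10.05 in diabetic marrow, against 10.06, 9.96 and 10.13 in wild type marrow. The groups overlapped, with the lowest array diabetic and the highest wild type. The difference, diabetic minus wild type, was -0.07 ± 0.07 on the log2 scale, with a 95% interval of -0.24 to 0.09 and a Benjamini-Hochberg adjusted p of 0.943 in limma.

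Tcf4, also called E2-2, is the E protein transcription factor that establishes and maintains plasmacytoid identity. It read 10.01, 10.08 and 10.10 in diabetic marrow, against 10.31, 10.34 and 10.16 in wild type marrow. Every diabetic value lay under every wild type value, by a narrow gap at wild type replicate 3. The difference was -0.21 ± 0.07, or 1.15-fold lower, and it did not pass the threshold, with a Benjamini-Hochberg adjusted p of 0.551 in limma.

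Cox6a2 encodes the heart and muscle form of a cytochrome c oxidase subunit, which mouse plasmacytoid dendritic cells also express. Its log2 signal was 9.21, 9.23 and 9.34 in diabetic marrow, against 9.67, 9.58 and 9.56 in wild type marrow. The groups were well apart, and 1.98% of all genes tested had a difference as large in either direction. The difference was -0.34 ± 0.06, or 1.27-fold lower, with a Benjamini-Hochberg adjusted p of 0.106 in limma.

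Muscle also uses Cox6a2, so muscle genes were set beside it. Of 14 listed, 7 passed the level filter, and they had a median change of 0.01, with 0 past the threshold and 0 at an unadjusted p under 0.05 in limma. Over the fits that left out 1 array the median ran from -0.02, without wild type replicate 3, to 0.07, without wild type replicate 1. Ckm, muscle creatine kinase, was at 0.01 ± 0.08 and Acta1, skeletal actin, at 0.01 ± 0.07. Eno3, a muscle enolase, had the largest difference at 0.11 ± 0.11, before Mb, myoglobin, at 0.06 ± 0.09 and Tnnt3, a troponin, at 0.03 ± 0.08. Cox7a1, a subunit of the same enzyme that is also a muscle form, lay below the level filter at -0.06 ± 0.08. Cox6a1, the form of the subunit that most tissues use, was at 0.05 ± 0.11 with overlapping groups. The part of muscle in the Cox6a2 value was not tested.

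Bst2, known as tetherin, holds budding viruses at the cell surface, and its antibody defines plasmacytoid dendritic cells in the resting mouse. It read 8.81, 8.89 and 8.89 in diabetic marrow, against 9.16, 9.15 and 9.09 in wild type marrow. The groups did not overlap and each varied little. The difference was -0.27 ± 0.06, or 1.21-fold lower, with a Benjamini-Hochberg adjusted p of 0.187 in limma.

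Bst2 was also counted in a list of interferon response genes, all 17 tested members of which were lower in diabetic marrow. Of these, 10 were past the threshold, against 0.333% of all genes tested. The other 16 members had a mean difference of -1.04, and that of Bst2 was the smallest of the 17. Ifit3, Rtp4 and Ifit1 had the largest, at -1.78 ± 0.16, -1.67 ± 0.21 and -1.49 ± 0.24, of which Ifit3 and Rtp4 fell past the threshold. The others past it were Irf7, Oas2, Usp18, Oasl2, Xaf1, Mx1, Irf9 and Stat2. The count of 10 became 1, 0 and 1 without diabetic replicate 1, 2 or 3 and 11, 3 and 11 without wild type replicate 1, 2 or 3. With replicate number as a block in the fit it was 0. Interferon response genes and Bst2 were both lower in diabetic marrow. On wild type replicates 1 to 3, Bst2 minus its 6-array mean was 0.163, 0.155 and 0.091. The mean of the other members, taken likewise, was 0.28, 0.72 and 0.57. The part of these genes in the Bst2 difference was not tested.

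Ly6d encodes a small lipid-anchored surface protein that marks lymphoid progenitors committed to the B cell lineage and plasmacytoid precursors. It read 10.67, 10.97 and 10.52 in diabetic marrow, against 11.62, 11.52 and 10.64 in wild type marrow. Wild type replicates 1 and 2 were high and wild type replicate 3 lay within the diabetic range. The difference, -0.54 ± 0.25 with a 95% interval of -1.12 to 0.04, was the largest in size of the 9 genes and did not pass, with a Benjamini-Hochberg adjusted p of 0.728 in limma. Without wild type replicate 3 it was -0.85 with a Benjamini-Hochberg adjusted p of 0.0348 in limma, and without wild type replicate 1 it was -0.36.

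B lineage genes were uneven over the same arrays. The mean log2 signal of the 13 tested was 10.47, 10.59 and 10.30 on the diabetic arrays, against 11.17, 10.89 and 10.02 on the wild type arrays. The highest arrays were wild type replicates 1 and 2, as for Ly6d, and the lowest was wild type replicate 3. Of the 13, 11 were lower, with a median of -0.23 that was -0.07 and -0.09 without wild type replicate 1 or 2 and -0.56 without wild type replicate 3. None passed the threshold, although 2 did without wild type replicate 3, and 1 had an unadjusted p under 0.05 in limma, Rag1, which cuts DNA in receptor gene assembly, at -0.60 ± 0.21. Cd79a, a signalling chain of the B cell receptor, was at -0.23 ± 0.23 and Ms4a1, which encodes CD20, at -0.22 ± 0.26. Vpreb1, part of the receptor of B cell precursors, lay below the level filter at -0.41 ± 0.20, and Vpreb3 and Dntt, other precursor genes, were at -0.50 ± 0.32 and -0.47 ± 0.25. The 2 genes set beside this list differed on wild type replicate 3. There, relative to 6-array means, the list mean was at -0.55, Ly6d at -0.35 and Tcf4 at -0.0009. The part of B lineage cells in the values of Ly6d and Tcf4 was not tested.

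**Figure D1:**
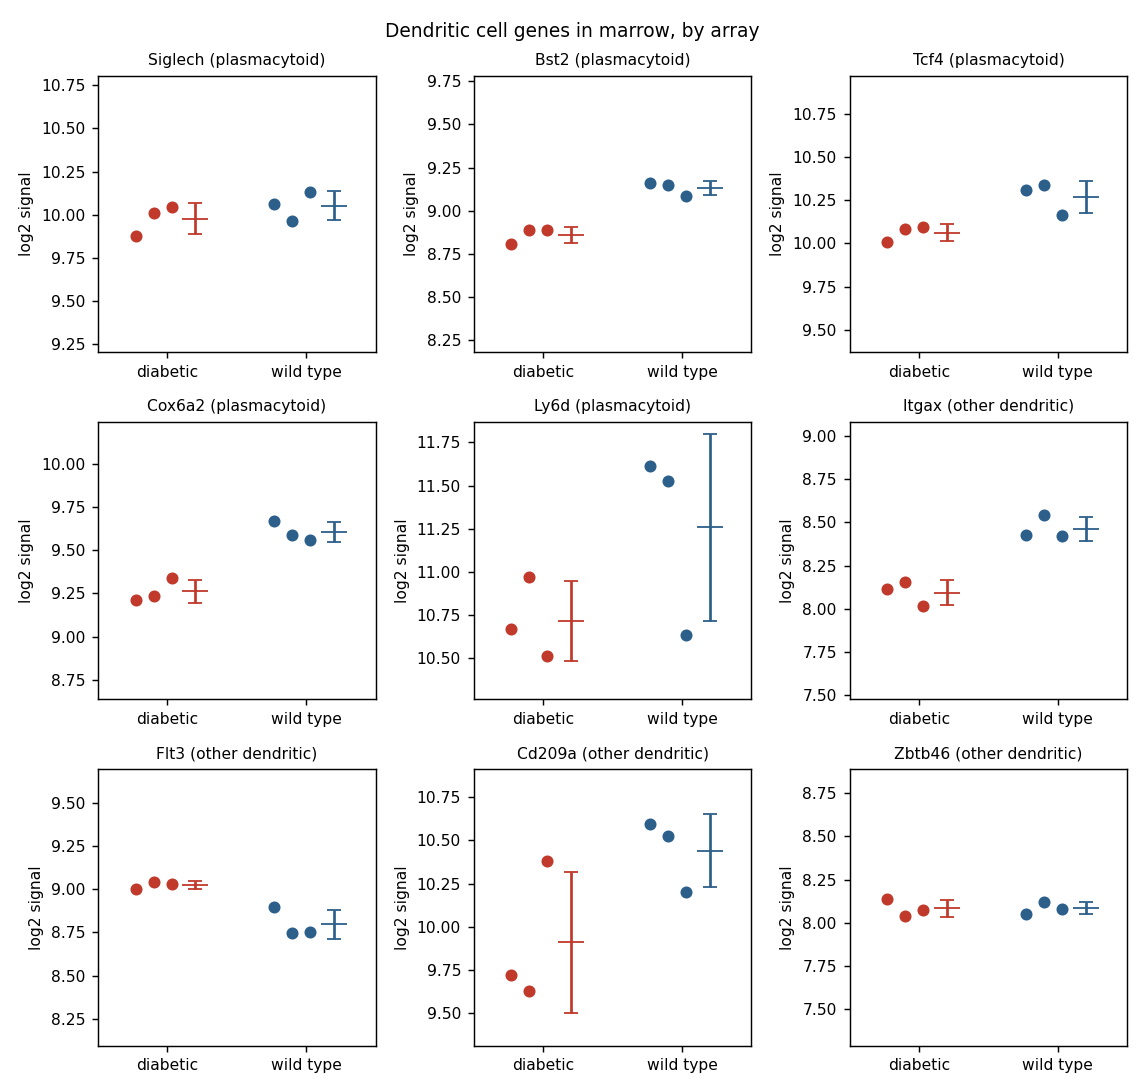
Log2 signal (vertical axis, a span of the same length in each panel) of the 9 measured dendritic cell genes on the diabetic (red, left) and wild type (blue, right) arrays, replicates 1 to 3 from left to right within a group. Points are arrays, and bars give the mean and the standard deviation of 3 arrays. The groups are apart for Bst2, Tcf4, Cox6a2, Itgax and Flt3 and overlap for the other 4, and wild type replicate 3 is low for Ly6d and diabetic replicate 3 high for Cd209a.

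Among the other dendritic cell genes, Itgax encodes the integrin chain CD11c, the usual surface marker of conventional dendritic cells. It read 8.11, 8.15 and 8.01 in diabetic marrow, against 8.42, 8.54 and 8.42 in wild type marrow. The groups were apart by more than the range within either one. The difference was -0.37 ± 0.07, or 1.29-fold lower, with a Benjamini-Hochberg adjusted p of 0.10 in limma, the smallest of the 9 genes.

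Most macrophage genes were lower, as Itgax was, and 2 were higher. Of 12 tested, 10 were lower, with a median change of -0.34, and 8 lay wholly under the wild type values, against 5.39% of all genes. C1qb, a chain of complement C1q, was at -0.62 ± 0.12, C1qa, another chain, at -0.32 ± 0.10 and Axl, a receptor for dying cells, at -0.53 ± 0.09. Mertk, a related receptor, fell by 0.47 ± 0.07 past the threshold. That call was lost without any 1 of the 6 arrays, with median centring and with replicate number as a block. The filter at the 60th percentile removed Mertk from testing. The 2 higher were Cd163, a scavenger receptor for haemoglobin, and Adgre1, which encodes a widely used macrophage surface marker. Cd163 read 8.18, 8.17 and 8.12 in diabetic marrow, against 7.85, 7.79 and 7.82 in wild type marrow. Those groups were well apart, and the difference of 0.34 ± 0.06 did not pass, with a Benjamini-Hochberg adjusted p of 0.0638 in limma. Adgre1 was at 0.27 ± 0.14 with overlapping groups. The part of macrophages in the Itgax value was not tested. The sister integrin chains had small differences of the other sign, with Itgam at 0.06 ± 0.08, Itgal at 0.10 ± 0.10 and Itgad at 0.04 ± 0.12.

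Flt3 encodes the receptor tyrosine kinase that dendritic cell progenitors need. It read 8.999, 9.04 and 9.03 in diabetic marrow, against 8.89, 8.75 and 8.75 in wild type marrow. Every diabetic value lay above every wild type value, and the diabetic arrays were nearly equal. The difference was 0.23 ± 0.06, or 1.17-fold higher, the only one of the 9 genes with a 95% interval wholly above 0, from 0.08 to 0.37. Its Benjamini-Hochberg adjusted p in limma was 0.430. Its ligand gene Flt3l was at 0.10 ± 0.08.

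Early progenitor genes were set beside Flt3. Of 9 tested, 6 were higher and 3 lower, with a median of 0.05, and none passed. Kit, the stem cell factor receptor, was at 0.24 ± 0.08 with the diabetic arrays all above the wild type ones, and Cd34 had no difference beyond its error of 0.09. Sox4, a factor of lymphoid progenitors, was at -0.26 ± 0.21 and Gata2 at 0.10 ± 0.07. The part of early progenitors in the Flt3 value was not tested.

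Cd209a encodes a C-type lectin, a mouse homolog of DC-SIGN, found on a subset of dendritic cells and of monocytes that give rise to dendritic cells. It read 9.72, 9.63 and 10.38 in diabetic marrow, against 10.60, 10.52 and 10.20 in wild type marrow. Diabetic replicate 3 was high, above wild type replicate 3, so the groups overlapped. The difference was -0.53 ± 0.20, with an interval of -0.99 to -0.07 and a Benjamini-Hochberg adjusted p of 0.606 in limma. Without diabetic replicate 3 it was -0.77, with a Benjamini-Hochberg adjusted p of 0.134 in limma.

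Monocyte genes did not run with Cd209a. Of 7 tested, 6 were higher in diabetic marrow, with a median of 0.20, or 0.11 without wild type replicate 2. Vcan, a matrix proteoglycan of classical monocytes, rose by 1.43 ± 0.22 past the threshold, a call lost without wild type replicate 2 or 3 or any 1 diabetic array, and with quantile normalization repeated, median centring or the stricter level filter. Fn1, fibronectin, was at 0.65 ± 0.13 and F13a1 at 0.28 ± 0.10. Csf1r, the receptor of monocyte growth, was at -0.01 ± 0.07. Diabetic replicate 3, the array high in Cd209a, was also the highest diabetic array for the T and NK cell list, whose 8 tested members averaged 8.92, 8.84 and 9.29 on the diabetic arrays, against 9.01, 9.29 and 9.08 on the wild type arrays. The part of those cells in the Cd209a value was not tested.

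Relatives of Cd209a lay mostly below the level filter. Of these, Cd209d passed it and was at 0.13 ± 0.12, while Cd209b, Cd209c, Cd209e, Cd209f and Cd209g did not pass it and had differences from -0.08 to 0.22 in a fit with no level filter. None of the 6 was past the threshold on Benjamini-Hochberg adjusted p in limma. They are close relatives, and signal of one may include RNA of another.

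Zbtb46 encodes a zinc finger repressor that, among immune cells, is restricted to conventional dendritic cells and their committed precursors. It read 8.14, 8.04 and 8.08 in diabetic marrow, against 8.05, 8.12 and 8.08 in wild type marrow. The groups lay over each other. The difference was 0.0004 ± 0.06, with an interval of -0.13 to 0.14.

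**Figure D2:**
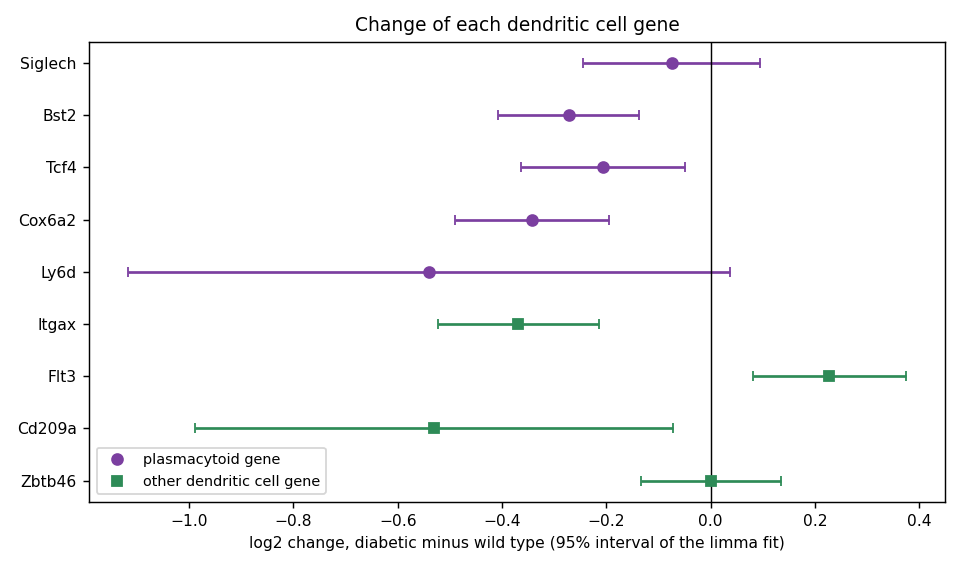
Difference in log2 signal, diabetic minus wild type (horizontal axis), of each measured dendritic cell gene, with plasmacytoid genes as circles and other dendritic cell genes as squares. Bars are 95% intervals of the limma fit with 3 arrays per group. The intervals of Bst2, Tcf4, Cox6a2, Itgax and Cd209a lie below 0, that of Flt3 lies above 0, and those of Siglech, Ly6d and Zbtb46 include 0.

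Set side by side, the 5 plasmacytoid genes measured all had a lower mean in diabetic marrow, with a median difference of -0.27. The groups were apart for Bst2, Tcf4 and Cox6a2. They overlapped for Ly6d, at -0.54 ± 0.25, and for Siglech, whose difference of -0.07 ± 0.07 was no larger than its error. Of the 4 others, Itgax was lower, Cd209a was lower with overlapping groups, Flt3 was higher and Zbtb46 was level. Their median was -0.18. The median over all genes tested was 0.005. The mean log2 signal of the 5 was 9.71, 9.84 and 9.78 on the diabetic arrays, against 10.16, 10.11 and 9.92 on the wild type arrays, so the groups were apart. The mean of the 4 others was 8.74, 8.72 and 8.87 on the diabetic arrays, against 8.99, 8.98 and 8.86 on the wild type arrays, so the groups overlapped at replicate 3 of each.

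The mean difference was -0.29 for the plasmacytoid genes and -0.17 for the others. Taken per array, plasmacytoid minus other genes was 0.998 ± 0.11 in diabetic and 1.12 ± 0.06 in wild type marrow (SD, n = 3 each), a difference of -0.12. That is close to the spread between replicates, and the ranges, 0.90 to 1.12 in diabetic and 1.05 to 1.17 in wild type marrow, overlapped. Without Flt3 the mean difference of the others was -0.30 and the gap between the sets was 0.01. Leaving out the highest change of 4 lowers their mean by construction, so this does not single out Flt3. Without Bst2 the gap was -0.12 and without Ly6d, an omission chosen after seeing the data, it was -0.06.

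Further genes of plasmacytoid cells were taken from a list. Of 36 listed, 30 were tested, 20 were lower and 10 higher, and the median was -0.11. At an unadjusted p under 0.05 in limma 7 were lower and 0 higher, against 3.2% and 3.98% of all genes tested. The 7 were Irf7, Tlr7, Tlr9, Pltp, Cd4, Rpgrip1 and Cd300c. Not all genes of the list are particular to plasmacytoid cells, as given below for Pltp, Cd4 and Spib. In direction alone, 47.7% of all genes tested were lower. Only Irf7, the factor that drives interferon genes in these cells and is itself induced by interferon, fell past the threshold, by 1.30 ± 0.17, and the median without it was -0.10. The count of 1 was 2 without wild type replicate 1 or 3. It was 0 without any 1 of the diabetic arrays, without wild type replicate 2 and with replicate number as a block. Irf7 read 9.82, 9.62 and 9.44 in diabetic marrow, against 10.54, 11.17 and 11.06 in wild type marrow.

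Single genes of that list differed in size. Ccr9, a chemokine receptor of mature plasmacytoid cells, was at 0.005 ± 0.10, Irf8, a factor needed for dendritic cell development, at 0.003 ± 0.10 and Bcl11a, a factor needed for plasmacytoid and B cell development, at -0.01 ± 0.08. Pacsin1, an endocytic adaptor found in plasmacytoid cells, was at -0.07 ± 0.07. Spib, an ETS factor shared with B cells, read 11.71, 11.93 and 11.19 in diabetic marrow, against 12.40, 12.18 and 11.32 in wild type marrow. Its difference of -0.36 ± 0.29 had replicate 3 of each group lowest, as for Ly6d. Bcl11a and Pacsin1 were picked after their values were seen.

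The sensor genes Tlr7 and Tlr9 of that list, measured in whole marrow, were lower by small amounts that did not pass the threshold. Tlr7, the sensor of single-stranded RNA, read 8.99, 8.99 and 9.01 in diabetic marrow, against 9.31, 9.18 and 9.07 in wild type marrow. Those groups did not overlap, and the difference was -0.19 ± 0.07 with a Benjamini-Hochberg adjusted p of 0.637 in limma. Tlr9, the sensor of CpG DNA, was at -0.28 ± 0.12, and their trafficking chaperone Unc93b1 at -0.20 ± 0.10, both with overlapping groups. Tlr9 and Unc93b1 both had replicate 3 of each group lowest, as for Ly6d. Their Benjamini-Hochberg adjusted p values in limma were 0.678 and 0.76. Of the same list, Slc15a4 was at -0.10 ± 0.09 and Myd88 was higher, at 0.12 ± 0.09. After Irf7, the members with the largest differences were Pltp, a phospholipid transfer protein also made by macrophages, at -0.55 ± 0.11 and Cd4, which plasmacytoid cells share with T cells and macrophages, at -0.53 ± 0.09. Both missed the threshold, with Benjamini-Hochberg adjusted p values of 0.129 and 0.0974 in limma.

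For conventional dendritic cells, 28 of 34 listed genes were tested, 17 lower and 11 higher, with a median of -0.07. That median was -0.03 without diabetic replicate 2, -0.04 without wild type replicate 2 and -0.006 without wild type replicate 1. It turned to 0.0155 with the level filter at the 60th percentile. In the main fit none of the 28 passed the threshold, and 4 had an unadjusted p under 0.05 in limma. Of these, 3 were lower and 1 was higher, against 3.2% and 3.98% of all genes tested. The higher one was Id2, at 0.31 ± 0.08. Irf4, a factor of type 2 conventional cells that B and plasma cells also use, had the largest difference at -0.51 ± 0.31, with wild type replicate 3 at 9.30 against 10.50 and 10.33 on the other wild type arrays. Clec9a, a receptor for dead cells on type 1 conventional cells, was at -0.33 ± 0.14 and Clec10a, a lectin of type 2 cells, at -0.32 ± 0.10. Xcr1, the chemokine receptor of type 1 cells, lay below the level filter at -0.22 ± 0.09, and Batf3, their transcription factor, was at -0.07 ± 0.07. Sirpa, a marker of type 2 cells also carried by granulocytes and monocytes, was at 0.15 ± 0.07.

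The genes of MHC class II presentation, shared by conventional dendritic cells and B cells, had a median of -0.02 over 8 tested, 5 lower and 3 higher, none past the threshold and 0 at an unadjusted p under 0.05 in limma. That median was -0.22 without wild type replicate 3 and 0.06 without wild type replicate 1. H2-DMa, which helps load peptides, was at -0.20 ± 0.09, H2-Ab1, a class II chain, at -0.13 ± 0.14 and Ciita, the master regulator, at 0.09 ± 0.16.

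Regulators of dendritic cell development split 18 higher and 11 lower among 29 tested, with a median of 0.04 and none past the threshold. Id2, the inhibitor that blocks E proteins such as Tcf4, read 12.49, 12.34 and 12.24 in diabetic marrow, against 12.12, 12.04 and 11.97 in wild type marrow. The groups did not overlap. Its difference was 0.31 ± 0.08, opposite in sign to that of Tcf4, with a Benjamini-Hochberg adjusted p of 0.357 in limma. Many other marrow cells express Id2. The other E proteins, Tcf3 and Tcf12, were at -0.15 ± 0.09 and -0.16 ± 0.11. Irf1 was at -0.27 ± 0.11 and Gfi1, a granulocyte factor, at 0.23 ± 0.10. Runx1 and Runx3, the relatives of Runx2, were at 0.02 ± 0.05 and 0.06 ± 0.11.

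**Figure D3:**
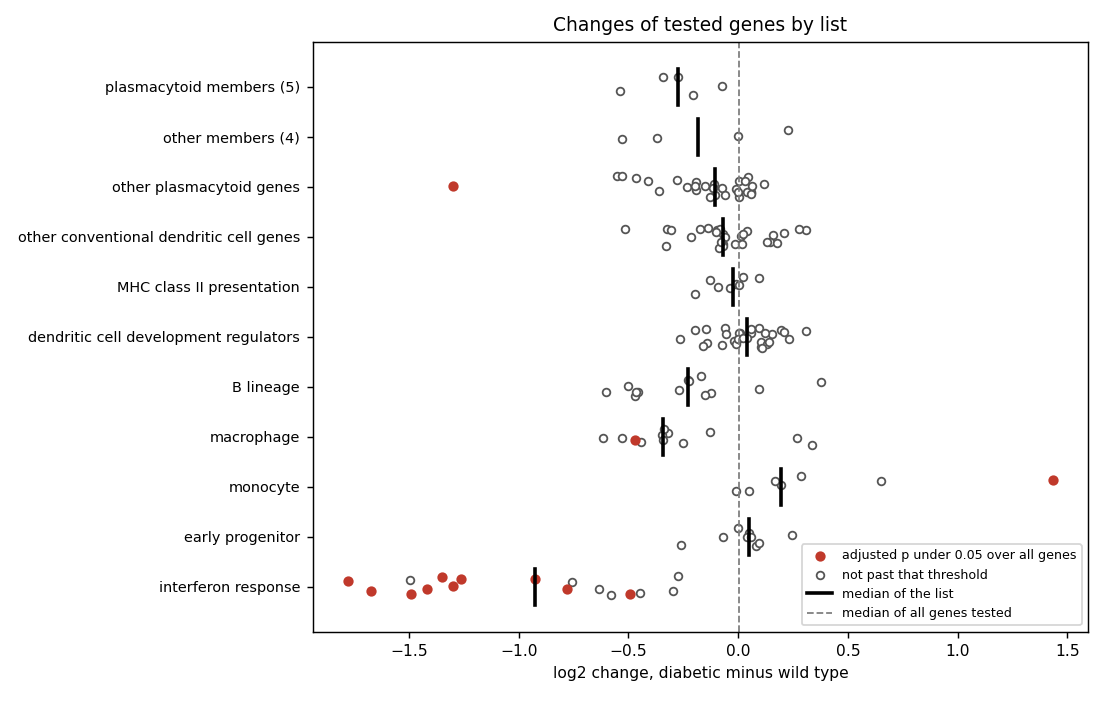
Difference in log2 signal, diabetic minus wild type (horizontal axis), of the tested genes of each list (rows, with random vertical scatter). Filled red points passed an adjusted p of 0.05 over all genes in limma, open points did not, black bars are list medians and the dashed line is the median of all genes tested. No measured dendritic cell gene and no tested gene of the conventional, class II or regulator lists is filled, and among the other plasmacytoid genes only Irf7 is.

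Among further relatives of the 9 genes, 20 of 26 listed were tested, 12 higher and 8 lower, with a median of 0.05 that lay between 0.005 without wild type replicate 1 and 0.03 when any 1 array was left out, and none past the threshold. Siglec1, a lectin of macrophages related to Siglech, was at -0.34 ± 0.07, Siglecg, a B cell lectin, at -0.26 ± 0.21 and Kit, a relative of Flt3, at 0.24 ± 0.08. Plasma cell genes, another lineage that shares Irf4, were lower in 6 of 6 tested, with a median of -0.43 and none past the threshold, or 1 without wild type replicate 1, led by Igha at -0.85 ± 0.15, Jchain at -0.69 ± 0.49 and Irf4.

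Osteoblast and stromal genes, which would bear on Runx2, had 4 tested of 11 listed, with Alpl, a bone alkaline phosphatase, at -0.38 ± 0.12, Cxcl12 at -0.10 ± 0.08, and Col1a1, a collagen chain, at 0.10 ± 0.11. Sp7, the osteoblast factor, lay below the level filter at 0.02 ± 0.08. In the main fit, the T and NK cell, neutrophil and erythroid lists had no member past the threshold. The T and NK cell list had a median of -0.06 with 7 of 8 lower, but the median was -0.25 without diabetic replicate 3 and turned to 0.03 and 0.02 without diabetic or wild type replicate 2, and 1 member passed without wild type replicate 3. It was led by Cd4, with Il2rb at -0.23 ± 0.12 and Cd8a at 0.16 ± 0.17. The neutrophil list had a median of 0.04 with 6 of 10 higher, and the median was -0.006 without diabetic replicate 1 and 0.11 without diabetic replicate 2. It was led by Retnlg at 0.14 ± 0.08, Mmp8 at 0.12 ± 0.08 and Mmp9 at 0.11 ± 0.07. The erythroid list had a median of 0.04 with 5 of 7 higher, and the median ran from -0.03 without diabetic replicate 2 to 0.17 without wild type replicate 3. It was led by Car1 at 0.27 ± 0.08, Tfrc at 0.16 ± 0.16 and Klf1 at -0.06 ± 0.19.

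**Figure D4:**
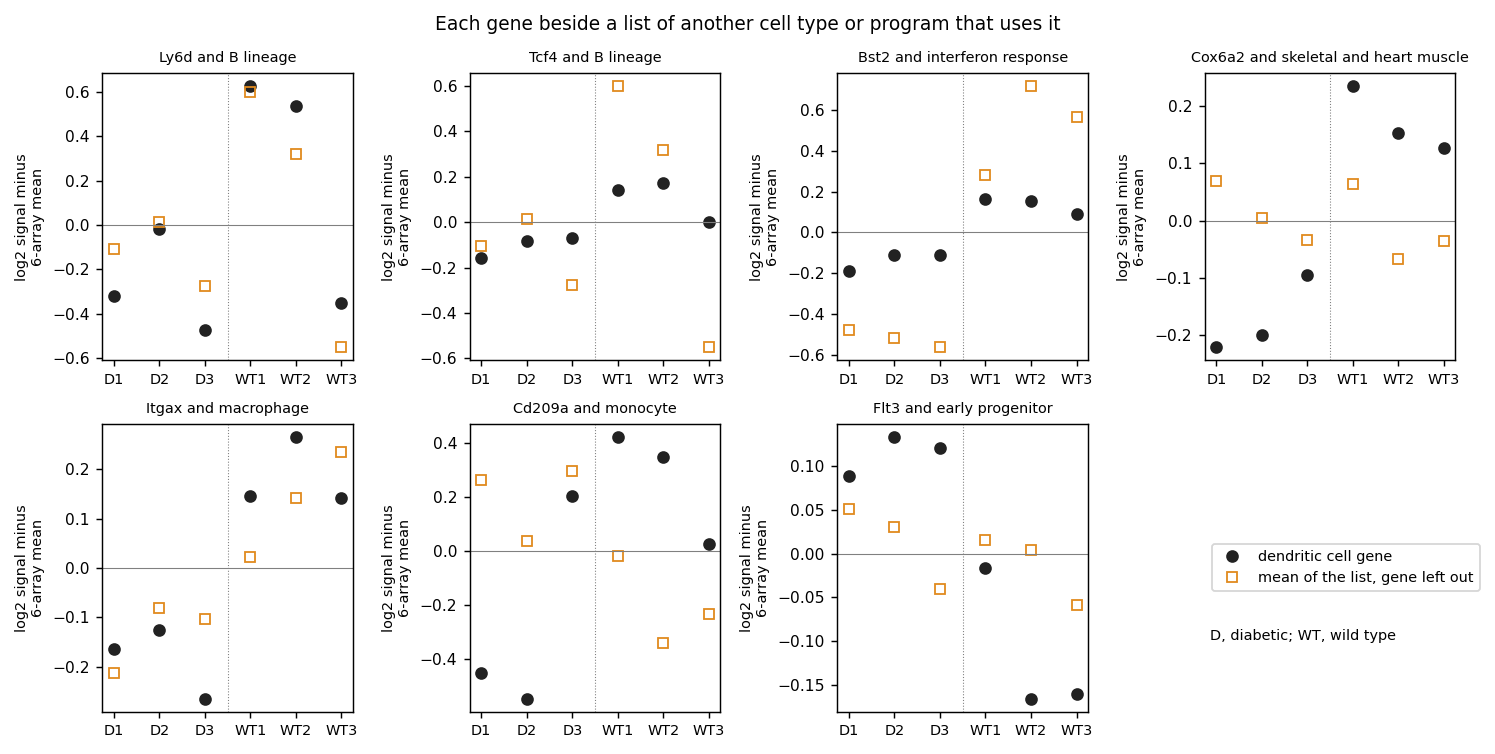
Log2 signal minus its mean over 6 arrays (vertical axis, a different span in each panel) for 7 dendritic cell genes (filled circles) and for the mean of a list of another cell type or program that uses the gene, with the gene left out (open squares), on the diabetic (D) and wild type (WT) arrays. Ly6d and the B lineage mean are both highest on wild type replicates 1 and 2, Bst2 and the interferon mean are both lower on all diabetic arrays, as are Itgax and the macrophage mean, and Cox6a2 differs by -0.34 where the muscle mean differs by 0.03.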

How the data were processed

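RNA of 6 marrow samples, 3 diabetic and 3 wild type, was compared, with groups taken from the sample titles. The authors deposited a log2 signal for each probe set, computed by RMA with the program Affymetrix Expression Console according to the labels and per the submitters' processing notes. RMA equalises the distributions of the arrays, so a shift shared by most genes cannot be seen. Software version and genome build: not given in the sources used here. The number of arrays limits the precision.

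Of 35556 probe sets, 21789 had 1 gene symbol, 1621 several and 12146 none. Of the single symbols, 21698 matched the RefSeq genes of GRCm38.p6, with 0 changed. Each gene was represented by its set of highest mean, and genes whose mean reached the 40th percentile of probe sets with any symbol, 7.503, were tested with lmFit and eBayes of limma 3.58.1 (R 4.3.3, with the data.table package, version 1.17.8) with no covariate. Benjamini-Hochberg adjustment ran over all 12029 genes. Genes below the filter have values from a fit with no filter. The fit was tested on simulated data. Figures used matplotlib 3.10.9 and Python 3.11.15.

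The genes and lists were chosen with earlier results of these data known. Lists are described by counts and medians, with no set test. Named were all 9 measured genes, fixed relatives and markers, and of each list the genes past the threshold and the 3 with the largest change. Others, such as Cd163, Flt3l, Unc93b1, Pacsin1, Bcl11a and genes of the sensors, were named after their values were seen.

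Replicate numbers were not treated as pairs. The deviations of same-numbered arrays from their group means correlated at 0.33, -0.04 and -0.05 over genes. For arrays of unlike number the values ran from -0.31 to 0.27. Deviations within a group sum to 0 for each gene, so these values cannot exclude pairing. Alternatives were other level filters, further normalization, probe set means, other eBayes settings, array weights, a replicate block and leaving out single arrays. Added after seeing the data were a second method of array weights and the removal of Ly6d and of Irf7.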

Additional observations from a re-analysis of the deposited data

How the results depend on the processing

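The signs of 8 of the 9 genes held in all 15 alternatives run (14 for Itgax, which the 60th percentile filter removes), and none of the 9 passed the threshold with another filter, a further quantile normalization, median centring, probe set means or eBayes with trend and robust settings. Zbtb46, near 0 throughout, was at -0.014 with a further quantile normalization, -0.010 with median centring, -0.0018 and -0.0026 with the 2 kinds of array weights, and -0.026 to 0.022 over the fits that left out 1 array. With array weights the count of genes past the threshold was 1878 and the count among the 9 was 7, but the estimate of the weights did not converge and gave wild type replicate 2 a weight of 11.7. With gene-by-gene array weights, chosen after seeing the data, the counts were 172 and 3, the 3 being Bst2, Cox6a2 and Itgax. Leaving out 1 array gave 3 to 70 genes past the threshold and 0 to 1 of the 9, the 1 being Ly6d without wild type replicate 3. With the replicate block the counts were 2 and 0, where the samples share only a number and the arrays numbered 1 correlated best with each other, while those numbered 2 and 3 did not. Without Flt3 the mean difference of the other dendritic cell genes was -0.30 and plasmacytoid minus other genes was 0.012. Over the fits that left out 1 array the mean difference ran from -0.36 to -0.24 for the plasmacytoid genes and from -0.22 to -0.14 for the others, and their gap from -0.18 to -0.07. With 3 arrays per group, the intervals of Ly6d and Cd209a allow anything from near 0 to a log2 difference of about -1.12 and -0.99.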
